A study of Mus musculus with 6 samples.

Results

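Of 149724 regions of accessible chromatin found in 3 mouse pro-B cell lines, 2272 (1.52%) carried a peak in all 4 libraries of the lines with a mutated IGCR1 and no peak in either library of the WT line. These mutated-only regions were chosen by the presence and absence of peaks in the deposited lists. Their strength in the mutated lines and their lack of WT peaks are therefore given as a description, and no test was made of them. ATAC-seq maps open chromatin by the sites where a transposase can insert sequencing adapters into DNA. The lines are cultured 129SV bone marrow pro-B cells, precursors of B lymphocytes, and all of them lack RAG2, part of the enzyme that cuts antigen receptor genes for V(D)J joining. CBE_1 and CBE_2 carry the genotype IGCR1-/-, and the WT line carries the wild-type form. The wild type is represented by a single line, so a difference of line and a difference of genotype cannot be told apart. Each line has 2 libraries, and the labels do not say whether they come from separate cultures.

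IGCR1 is a control region of the immunoglobulin heavy chain locus, IgH, that lies between the VH and D gene segments and binds the insulator protein CTCF. In developing B cells it restrains contact between the proximal VH segments and the D and J segments. In general, peaks that differ between related cell types lie more often at enhancers than at promoters, and enhancers of 1 gene often lie in groups of several along a stretch of chromatin. An annotation of the build of these files (mm9) was not used here, so the regions carry positions and no gene names, and the pro-B identity of the lines was not checked against marker genes.

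The CBE_1 lists held 72318 and 80242 peaks, the CBE_2 lists 94665 and 97522, and the WT lists 112241 and 106056. Read depth behind these lists is unknown. The WT lists, from which the members are absent, were thus the longest. Absence means that no peak was called there, not that the chromatin was closed. Regions with a peak in all 4 mutated lists numbered 51166, and the mutated-only regions were 4.44% of them. When only the better 50% of each list was kept, 1329 regions met the rule.

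The mutated-only regions had a median width of 755 bp (95% interval 737 to 774 bp), from 212 to 4439 bp. The median was 398 bp for regions found in both WT libraries and neither mutated line, 501 bp for regions missing only from CBE_1, 598 bp for regions missing only from CBE_2, and 1053 bp for the 47767 regions found in all 6 lists. Regions missing only from CBE_1 or only from CBE_2 have peaks in 4 lists and none in the lists of 1 line, as the members do. Width covers the union of the peaks of a region and grows with the number of lists that contribute. Within single lists, the strongest peak of a mutated-only region had a median width of 447 and 467 bp in CBE_1 and 586.5 and 592.5 bp in CBE_2. With the better 50% of each list, the median width of the regions that met the rule was 1134 bp.

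Strength is given as the fold of a peak over background, which is the authors' own value, and as the percentile of its −log10 p-value within its own list. Of the 2272 mutated-only regions, 500 (22.0%) were narrower than 500 bp, and 4.2% of those stood above the 50th percentile in all 4 mutated lists. Of the 122 regions of 2 kb or more, 73.0% did so. Across the members the Spearman correlation of width with the lowest of the 4 percentiles was 0.515 (n = 2272). Both measures come from the same peaks, and the wider members stood higher in their lists.

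At the median, mutated-only regions stood near the middle of their own lists. The median fold was 4.07 and 3.96 in the CBE_1 libraries (95% intervals 4.07 to 4.22 and 3.86 to 4.07), and 4.90 and 4.72 in the CBE_2 libraries (4.66 to 5.03 and 4.62 to 4.83). Regions of all 6 lists had median folds of 6.48 and 6.67 in the CBE_1 libraries and 7.97 and 7.73 in the CBE_2 libraries. The classes missing from 1 mutated line were weaker than the members. Regions missing only from CBE_2 had median folds of 3.32 and 3.13 in CBE_1 (percentiles 25.0 and 28.3). Those missing only from CBE_1 had 3.43 and 3.44 in CBE_2 (percentiles 33.6 and 36.2). The members' median percentiles were 42.6 and 46.3 in the CBE_1 libraries and 54.9 and 55.1 in the CBE_2 libraries. In 635 regions (27.9%) the peak stood above the 50th percentile of every mutated list, and in 13 it stood above the 90th. At the other end, 402 regions (17.7%) fell in the lowest 10% of at least 1 mutated list, a count pooled over 4 lists. List by list, that share was 7.79% and 6.25% in CBE_1 and 5.33% and 3.21% in CBE_2, below 10% in each. Above the 90th percentile stood 1.23% and 0.968% in CBE_1 and 2.95% and 3.13% in CBE_2, also below 10%. The counts over several lists were not computed for all regions of the 4 mutated lists, so they have no background beside them.

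**Figure D1:**
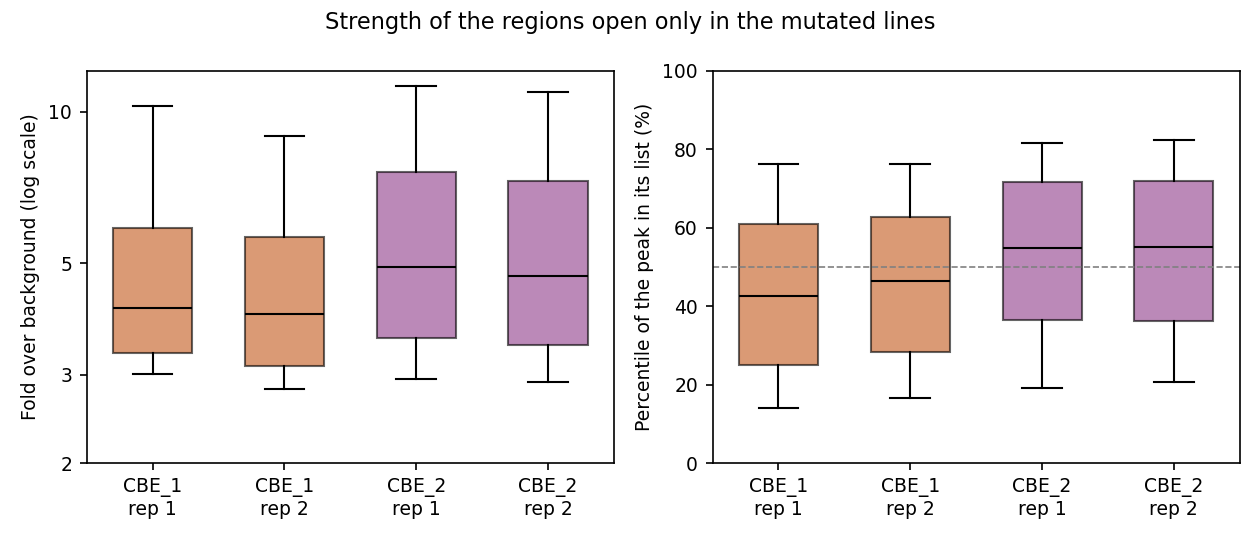
Strength of the 2272 mutated-only regions in each mutated library: fold over background on a log scale (left) and percentile of the peak within its own list (right). Boxes span the middle 50% of regions with the median as a line, and whiskers span the 10th to 90th percentile. CBE_1 medians lie at folds of 4.07 and 3.96 and CBE_2 medians at 4.90 and 4.72. The dashed line marks the middle of a list.

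The rule does not fix in which mutated line a region is stronger. Both CBE_1 libraries ranked above both CBE_2 libraries in 379 mutated-only regions (16.7%, Wilson interval 15.2 to 18.3%), against 14.9% of all regions with a peak in the 4 mutated lists. The reverse order held in 1143 (50.3%, 48.3 to 52.4%), against 55.1%. The members' shares lay within a few percentage points of this background, which includes the members. The intervals cover counting error only, and regions are not replicates of a line, so these differences were not tested. In the remaining 750 regions the libraries of the lines overlapped. Without CBE_2 replicate 1 or CBE_2 replicate 2, where CBE_1 has to exceed 1 library only, the share with CBE_1 above was 26.3% and 25.3%. With 2 libraries a line, an exact permutation test could not give a two-sided p under 0.33, and none was made.

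Duplicates of a line lay closer to each other than the lines did. The median gap between duplicates was 7.58 percentile points in CBE_1 and 4.04 in CBE_2, against 12.3 points between the line means. Spearman correlations of fold over the members were 0.795 between the CBE_1 libraries, 0.936 between the CBE_2 libraries and 0.563 to 0.600 between libraries of different lines (n = 2272 regions that share their libraries). The summits of the 4 libraries lay close together. Their range had a median of 119 bp and was at most 200 bp in 75.1% of the regions, against 85.6% of regions missing only from CBE_1, 69.0% of those missing only from CBE_2 and 83.8% of regions in all 6 lists, whose range is over 6 summits.

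Some members were strong in 1 mutated line and near the threshold in the other. The examples with the largest gaps in percentile were chosen after their values were seen, and positions here and throughout are those of mm9. On chromosome 2 at 174119794 to 174122201 the folds were 22.0 and 16.7 in CBE_1 and 2.57 and 2.58 in CBE_2, with no WT peak. Chromosome 16 at 46009917 to 46011350 had folds of 24.9 and 20.4 in the CBE_1 libraries and 2.57 and 2.68 in the CBE_2 libraries. Both regions were among the strong peaks of CBE_1 and the weak peaks of CBE_2. In the other direction, chromosome X at 147390912 to 147391787 showed folds of 2.87 and 2.61 in the CBE_1 libraries and 10.4 and 10.3 in the CBE_2 libraries. On chromosome 3, the region at 115954320 to 115955794 had 2.56 and 2.50 in the CBE_1 libraries and 6.74 and 7.19 in the CBE_2 libraries. Line means differed by more than 30 points, with no overlap of libraries, in 60 members toward CBE_1 (2.64%) and 278 toward CBE_2 (12.2%). Of all regions with a peak in the 4 mutated lists, 0.512% did so toward CBE_1 and 4.38% toward CBE_2. The direction of the lean, to CBE_2, is thus also that of the background. Gaps of this size were more frequent in the members than in the background in both directions, and this difference was not tested.

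The strongest mutated-only regions were strong in both lines. The first, on chromosome 1 at 82278857 to 82280908, was 2052 bp wide. Its folds were 28.8 and 24.4 in CBE_1 and 25.6 and 23.3 in CBE_2. It stood at percentiles 96.3 and 98.5 in CBE_1 and 99.3 and 99.2 in CBE_2, with the nearest WT peak 9.75 kb away. The second member of the 10 strongest on this stretch, at 82285786 to 82290060, had folds of 24.6 and 19.1 in CBE_1 and 24.0 and 22.4 in CBE_2, and a WT peak 0.598 kb away. On chromosome 14 at 84842096 to 84846534, the widest member of all had folds of 24.9 and 22.3 in the CBE_1 libraries and 26.1 and 23.6 in the CBE_2 libraries. Of these 3, the last 2 lay within about 1 kb of a WT peak.

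Further regions of this group stood far from WT peaks. That on chromosome 7 at 46772692 to 46773762 reached folds of 24.0 and 19.4 in CBE_1 and 18.8 and 16.2 in CBE_2, 33.5 kb from any WT peak. On chromosome 9 at 98196651 to 98199085 the folds were 23.4 and 20.1 in CBE_1 and 17.7 and 15.5 in CBE_2, with the nearest WT peak at 34.5 kb. On chromosome 1 at 99991064 to 99992990 they were 23.5 and 17.7 in CBE_1 and 19.5 and 18.7 in CBE_2, with the nearest WT peak at 22.2 kb. The other members of the 10 strongest lay on chromosomes 2, 11, 18 and 19, and their lowest percentile in any mutated list ranged from 91.4 to 96.1. Among the 3 widest members, that on chromosome 11 at 112906159 to 112910387 was 4229 bp wide and had folds of 10.7 and 10.01 in the CBE_1 libraries and 20.97 and 20.8 in the CBE_2 libraries.

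The rule sets a threshold on presence, and many regions just outside it had only weak WT peaks. Another 1127 regions had a peak in all 4 mutated lists and in 1 WT list, 672 of them in WT replicate 1 and 455 in WT replicate 2. Their WT peaks were weak, with a median fold of 2.92 (22.4th percentile) in replicate 1 and 2.86 (16.8th percentile) in replicate 2. In the mutated lists they were weaker than the members as well, with median folds of 3.62 and 3.65 in CBE_1 and 4.05 and 3.97 in CBE_2. Those named next had the highest lowest percentile over the mutated lists, so they are not typical of the 1127 regions. The strongest of them, on chromosome 18 at 46470811 to 46473297, showed folds of 24.4 and 20.6 in CBE_1, 19.99 and 16.5 in CBE_2, and 3.25 in WT replicate 1. Next came a region on chromosome 4 at 40089435 to 40091150, with folds of 23.7 and 19.6 in CBE_1, 17.5 and 16.2 in CBE_2, and 2.81 in WT replicate 1. The next, on chromosome 10 at 36855724 to 36861917, had 23.4 and 18.2 in CBE_1, 19.4 and 16.3 in CBE_2, and 2.31 in WT replicate 2.

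A further 1899 regions lacked a WT peak but missed 1 of the 4 mutated lists. The missing list was CBE_1 replicate 1, the shortest list, in 985 (51.9%), CBE_1 replicate 2 in 486, CBE_2 replicate 1 in 251 and CBE_2 replicate 2 in 177. The strongest of these regions, on chromosome 3 at 100122303 to 100122672, had a fold of 5.11 in CBE_1 replicate 2 and 5.27 and 5.26 in CBE_2. The weakest member inside the rule, on chromosome 7 at 148668245 to 148668651, showed folds of 3.47 and 2.81 in the CBE_1 libraries and 2.57 and 2.15 in the CBE_2 libraries. A member on chromosome X at 106322964 to 106323376 had 3.47 and 3.02 in the CBE_1 libraries and 2.21 and 2.58 in the CBE_2 libraries. These lowest folds lie just above the lowest fold of the lists, which was between 2.04 and 2.26 in the mutated libraries and 2.06 and 2.09 in WT.

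Mutated-only regions lay at a median of 8.38 kb (95% interval 7.67 to 9.29 kb), edge to edge, from the nearest region of all 6 lists. The same distance was 9.87 kb for regions found only in WT, 10.6 kb for those missing only from CBE_1 and 3.27 kb for those missing only from CBE_2. Regions of all 6 lists lay 3.91 kb from the next of their kind. Within 1 kb of a shared region stood 328 mutated-only regions (14.4%), within 10 kb 1221 (53.7%) and within 50 kb 1915 (84.3%). Beyond 100 kb lay 167 (7.35%), against 15.7% of the WT-only class, 10.7% of regions missing only from CBE_1 and 8.09% of those missing only from CBE_2. The share was lower in other classes. It was 6.79% for 3 mutated lists and no WT list, 3.99% for all mutated lists and 1 WT list, and 2.49% for all 6 lists. With the better 50% of each list the median distance was 16.4 kb.

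**Figure D2:**
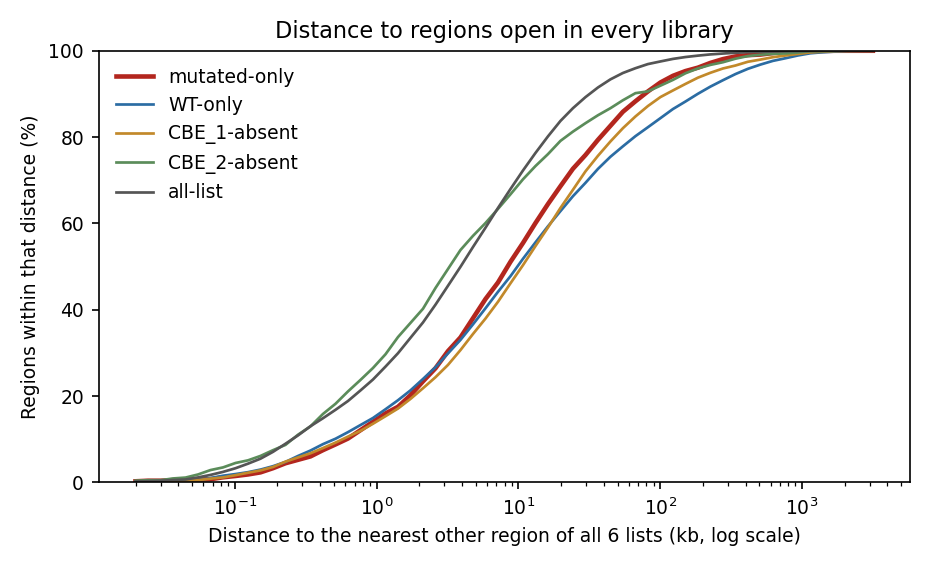
Share of regions (vertical axis, %) that lie within a given distance of the nearest other region found in all 6 lists (horizontal axis, kb, log scale), for 5 classes of region. The mutated-only curve has its median at 8.38 kb, between the regions missing only from CBE_2 (3.27 kb) and the WT-only regions (9.87 kb).

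The share of strong members was higher far from shared regions. Of those within 1 kb of a shared region 20.1% stood above the 50th percentile in all 4 mutated lists, of those at 1 to 10 kb 23.0%, at 10 to 50 kb 33.0% and beyond 50 kb 37.8%. The median fold in CBE_2 replicate 1 was 3.92 within 1 kb and 5.64 beyond 50 kb, and in CBE_1 replicate 1 it was 3.62 and 4.67. A peak of a WT library lay within 1 kb of 417 members (18.4%) and within 0.5 kb of 194 (8.54%). The nearest WT peak was at a median of 4.95 kb, and for 48 members it lay beyond 100 kb.

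The most isolated members were not among the strongest. On chromosome 6 at 61129961 to 61131193 the nearest shared region was 1681 kb and the nearest WT peak 452 kb away, and the folds were 5.13 and 3.86 in the CBE_1 libraries and 2.82 and 2.36 in the CBE_2 libraries. On chromosome 1 at 69733574 to 69734500, the shared region was 1349 kb away, and the folds were 7.84 and 6.15 in the CBE_1 libraries and 3.43 and 2.79 in the CBE_2 libraries. Both were stronger in the CBE_1 libraries. Another, on chromosome 16 at 67620195 to 67621464, lay 933 kb from a shared region but 5.77 kb from a WT peak, with folds of 3.62 and 2.92 in the CBE_1 libraries and 3.43 and 3.22 in the CBE_2 libraries.

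Regions open in all 6 lists ranked higher in the mutated lines when a mutated-only region was near. Within each library, the folds of the 47767 shared regions were turned into percentiles, and a shared region was called above WT when all 4 mutated libraries exceeded both WT libraries. This held for 819 of the 2093 shared regions within 10 kb of a mutated-only region (39.1%, Wilson interval 37.1 to 41.2%), against 20.3% of all shared regions. Below WT in the same sense were 223 (10.7%), against 20.1%. The median rank of these neighbours was 53.5 and 53.4 in the CBE_1 libraries, 50.9 and 50.6 in the CBE_2 libraries, and 42.0 and 42.3 in WT. This compares the same lines as the rule that chose the members, so it is a description of their surroundings and was not tested.

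The share fell with distance. It was 58.8% of 347 shared regions within 1 kb, 37.2% of 845 at 1 to 5 kb, 33.4% of 901 at 5 to 10 kb, 27.1% at 10 to 50 kb, 22.4% at 50 to 100 kb and 17.7% beyond 100 kb. Below WT were 4.03% within 1 kb and 22.2% beyond 100 kb. Each mutated line showed the pattern when set against WT alone. The CBE_1 pair ranked above the WT pair in 54.9% of the neighbours within 10 kb and in 36.9% of all shared regions, and the CBE_2 pair in 51.7% and 33.2%. In all 20 chromosomes the share above WT was higher among neighbours than among the other shared regions of that chromosome. Chromosome 19 had the lowest share among neighbours, 12.1% of 33 regions, against 6.68% of its other shared regions. Around regions found only in WT the split was the reverse, with 10.7% above and 34.5% below WT. It was also reversed around regions missing only from CBE_1 (14.3% above, 24.3% below) and only from CBE_2 (13.0% above, 23.9% below).

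**Figure D3:**
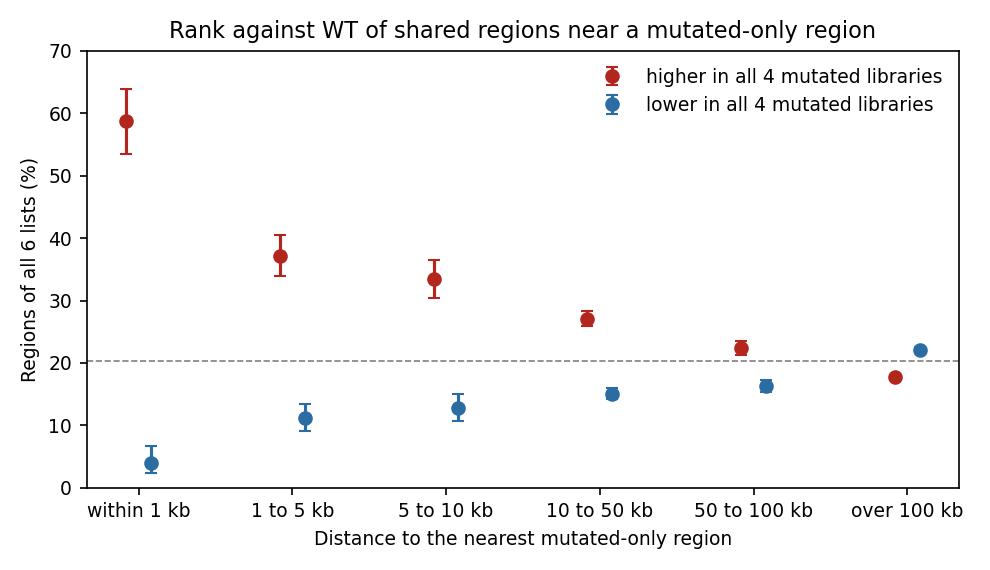
Regions of all 6 lists by their distance from the nearest mutated-only region (horizontal axis). Points give the share (%) that ranked higher or lower in each of the 4 mutated libraries than in the WT pair, with 95% Wilson intervals, which cover counting error only. The dashed line is the share above WT over all shared regions, 20.3%. The share above WT is 58.8% within 1 kb and 17.7% beyond 100 kb.

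Most mutated-only regions had no other of their kind within 10 kb, but the classes just outside the rule were grouped less often. Within 10 kb of another of their kind lay 490 (21.6%, Wilson interval 19.9 to 23.3%), against 35.4% of the 13003 WT-only regions, 20.1% of the 7567 regions missing only from CBE_1 and 14.6% of the 977 missing only from CBE_2. Of the 1899 regions with 3 mutated lists and no WT list 10.6% lay so near their own class. Of the 1127 with all mutated lists and 1 WT list 6.65% did. These classes differ in number, and a larger class has closer neighbours on average for that reason. The regions missing only from CBE_1 outnumber the members and had a similar share. Chained at gaps of 10 kb or less, the members formed 180 pairs and 40 clusters of 3 or more, which held 130 regions. Another member lay within 0.5 kb of 139 of them. When gaps of 500 bp or less were merged the share within 10 kb was 14.7%, and with the better 50% of each list 13.6%.

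The largest cluster, on chromosome 14 at 122862176 to 122890710, held 7 members over 28.5 kb. Its strongest member, at 122872329 to 122875999, had folds of 6.79 and 5.94 in the CBE_1 libraries and 8.71 and 7.95 in the CBE_2 libraries. Its weakest, at 122886558 to 122886898, had 3.17 and 2.61 in the CBE_1 libraries and 2.70 and 3.22 in the CBE_2 libraries. The span held 23 CBE_1 peaks and 30 CBE_2 peaks over the pairs of libraries, and 3 WT peaks. One region of all 6 lists lay inside it, at 122884035 to 122885416, with folds of 5.43 and 4.38 in CBE_1, 8.83 and 7.09 in CBE_2, and 3.03 and 3.30 in WT. Among the shared regions it ranked at percentiles 41.1 and 26.6 in CBE_1, 54.9 and 45.5 in CBE_2, and 2.26 and 4.46 in WT.

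**Figure D4:**
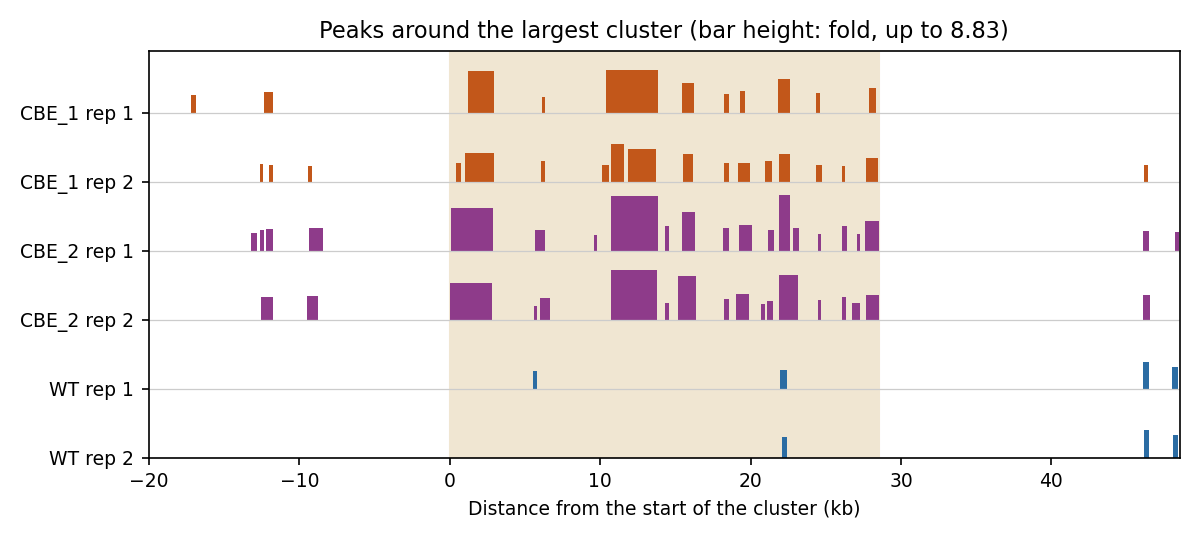
Peaks of all 6 libraries around the largest cluster of mutated-only regions, by distance from the cluster's start (kb). Each bar spans 1 peak, its height is the peak's fold (up to 8.83), and the shaded stretch is the cluster of 28.5 kb. The CBE_1 and CBE_2 rows hold 23 and 30 peaks in the shaded stretch, and the WT rows 3.

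On chromosome 11 at 30076191 to 30099312, 6 members lay over 23.1 kb. The strongest, at 30097485 to 30099312, had folds of 17.5 and 14.3 in the CBE_1 libraries and 16.2 and 16.0 in the CBE_2 libraries. The other 5 had folds between 2.70 and 7.72. Between them a region at 30086819 to 30087711 had 9.35 and 8.13 in CBE_1, 8.95 and 9.56 in CBE_2, and 2.92 in WT replicate 1, the one WT peak of the cluster. This region missed the rule by that peak alone.

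The next 3 clusters had 4 members each. That on chromosome 9 at 98389564 to 98396520 spanned 6.96 kb, held no WT peak, and lay 42.6 kb from the nearest. Its members had folds of 3.44 to 10.01 in CBE_1 and 3.56 to 13.98 in CBE_2. On chromosome 18 at 79297963 to 79307877, the strongest of 4 members had folds of 14.02 and 13.4 in CBE_1 and 14.1 and 14.8 in CBE_2, with 1 WT peak in the span. On chromosome 11 at 82219742 to 82248941, the cluster held 8 WT peaks and 4 shared regions as well. One of the 4, at 82234753 to 82236209, reached folds of 24.6 and 20.1 in CBE_1, 19.5 and 18.04 in CBE_2, and 12.01 and 11.4 in WT.

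Some members followed one another with no other region of the 4 mutated lists between them. Of the 2272 members 636 (28.0%) stood in such runs of 2 or more, and 66 runs held 3 or more. Members were 4.44% of the regions of the 4 mutated lists. The share in runs was not computed for another class, so 28.0% has no background beside it. The longest run, on chromosome 10 at 36909703 to 37024937, had 9 members over 115.2 kb and no WT peak in the span. The strongest of the 9, at 37009625 to 37010830, had folds of 10.3 and 12.7 in CBE_1 and 12.4 and 11.5 in CBE_2, and the weakest, at 36911139 to 36911566, had 3.62 and 4.17 in the CBE_1 libraries and 4.54 and 2.90 in the CBE_2 libraries. Every member of this run lay more than 100 kb from the nearest shared region, at 175.2 to 289.7 kb. The broad region at 36855724 described above, with 1 weak WT peak, lies on the same stretch. The second run, on chromosome 9 at 98324611 to 98396520, had 6 members over 71.9 kb with no WT peak and includes the cluster of 4 there. The runs were chosen after their values were seen.

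The members were spread over all 20 chromosomes in the lists, chromosomes 1 to 19 and X. In bins of 1 Mb, 1063 of the 2525 bins with any region held at least 1 member, 503 of them exactly 1. Bins with 5 or more numbered 81 and held 22.6% of the members. The fullest bin, 79 to 80 Mb of chromosome 18, held 13 members among 28 regions of the 4 mutated lists. Chromosome 10 at 83 to 84 Mb held 12 of 32, chromosome 3 at 148 to 149 Mb 11 of 35 and chromosome 18 at 35 to 36 Mb 11 of 65. On chromosome 7 at 143 to 144 Mb, 8 of 19 such regions were mutated-only. The 10 fullest bins together held 101 members (4.45%), and the other 5 of them, on chromosomes 1, 2, 6, 11 and 14, had 8 to 10 each.

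As a share of the regions with a peak in all 4 mutated lists, members ranged from 2.81% on chromosome 19 (41 of 1458; Wilson interval 2.08 to 3.79%) to 6.09% on chromosome X (74 of 1215; 4.88 to 7.58%). Chromosome 11 followed with 5.61% (203 of 3621; 4.90 to 6.40%) and chromosome 6 with 5.53% (152 of 2748; 4.74 to 6.45%). The intervals of the other 16 chromosomes lay between 2.85 and 5.95%. The lists themselves differ on chromosomes 19, X and 11. Chromosome 19 held 2.79% and 2.70% of the peaks in CBE_1, 2.47% in both CBE_2 libraries, and 3.79% and 3.75% in WT. Chromosome X held 2.12% and 2.31% of the peaks in CBE_1, 2.38% and 2.40% in CBE_2, and 1.96% and 2.00% in WT. For chromosome 11 the shares were 7.14% and 6.72% in CBE_1, 6.12% and 6.16% in CBE_2, and 5.27% and 5.34% in WT. The part of these differences in the members' spread was not tested.

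**Figure D5:**
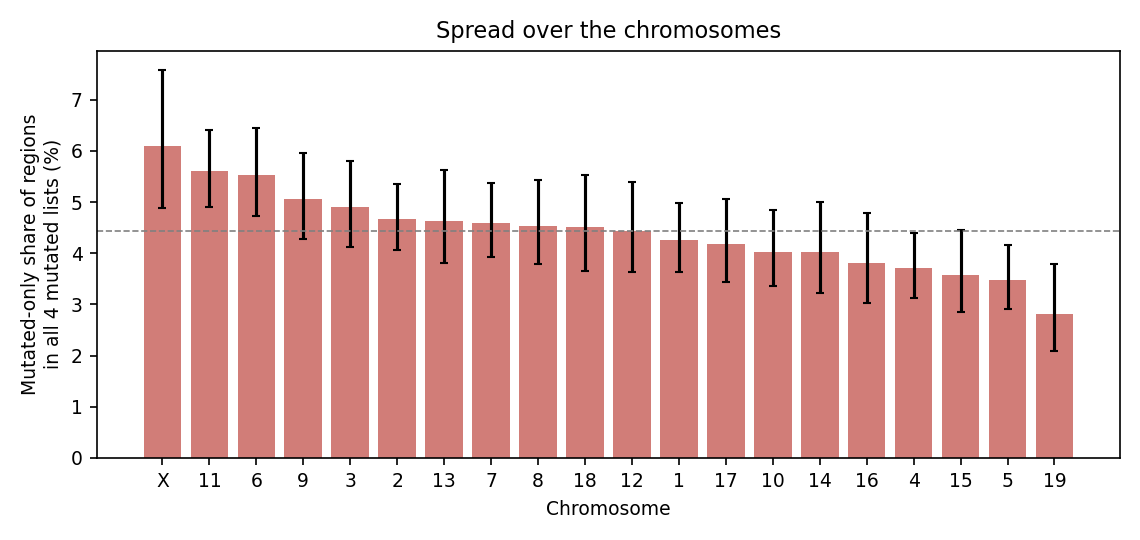
Mutated-only regions as a share (%) of all regions with a peak in the 4 mutated lists, by chromosome, in order of the share. Error bars are 95% Wilson intervals for counting error, and the dashed line is the genome-wide share of 4.44%. Chromosome X is highest at 6.09% and chromosome 19 lowest at 2.81%.

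In windows for IgH and Igk the wide interval of the members' share held the genome-wide share, and the members in IgH were weak. Other antigen receptor loci were not counted. In an approximate window for IgH, 8 of 197 regions of the 4 mutated lists were mutated-only (4.06%, Wilson interval 2.07 to 7.81%), near the genome-wide 4.44%. The strongest, on chromosome 12 at 115500034 to 115501021, stood at percentiles 37.1 and 46.3 in the CBE_1 libraries and 49.7 and 44.2 in the CBE_2 libraries. The member with the lowest coordinate, at 114761746 to 114762129, stood at 1.18 and 16.6 in the CBE_1 libraries and 14.4 and 24.6 in the CBE_2 libraries. A shared region lay 0.5 kb from it. None of the 8 reached the middle of its list in any library, and their nearest WT peaks lay 0.165 to 5.26 kb away.

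In a window for Igk, the light chain locus, 10 of 167 regions were mutated-only (5.99%, Wilson interval 3.28 to 10.7%, which holds the genome-wide share). Their lowest percentile in any mutated list ranged from 14.1 to 56.1, against a median of 31.5 over all members. They were narrow, at 337 to 632 bp. The strongest by its weakest library, on chromosome 6 at 69557091 to 69557462, stood at percentiles 57.7 and 56.2 in the CBE_1 libraries and 56.1 and 59.96 in the CBE_2 libraries. On the same chromosome, that at 70408777 to 70409162 reached folds of 4.22 and 6.25 in the CBE_1 libraries and 4.17 and 5.26 in the CBE_2 libraries. It lay 0.428 kb from a WT peak.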

How the data were processed

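ATAC-seq libraries from 3 pro-B cell lines, 2 per line, were made from 200000 cells each with 11 PCR cycles, per the labels. The submitters' processing notes name Trimmomatic, Bowtie2, SAMtools and Picard, and the build mm9. For the peak caller, its settings and any shift of reads to the insertion site, the sources used here give nothing, and what they would change was not tested. The authors deposited 1 peak list per library, with a score, a fold (ratio) over background, −log10 p-values and −log10 q-values and a summit for each peak. All are the authors' own, and here they serve to rank, filter or describe peaks inside 1 list.

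Peaks of the 6 lists that overlapped by 1 bp or more were merged into regions (Python 3.11.15, pandas 2.3.3, numpy 2.4.6), and a region takes the values of its strongest peak by −log10 p in each list. Distances are edge to edge. Positions are 1-based. Intervals are 95% Wilson intervals for shares and exact binomial order-statistic intervals for medians (scipy 1.17.1). They cover counting error only, and neighbouring regions are not independent. Merging, classes, distances and clusters were tested on simulated data. Replicates are numbered in accession order. The p-values of a test between lines would measure only the spread between duplicates, and none was computed.

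Members, classes and rules were chosen with earlier results of these data known. Named regions are the 10 with the highest lowest percentile over the mutated lists, the 5 largest clusters, the 3 widest, 3 most isolated and 3 of lowest fold, the members in windows for IgH and Igk set from general knowledge of mm9, the 10 fullest bins and the strongest regions just outside the rule. Alternatives were another merging rule, stricter lists, a stricter absence from WT and each library left out. No genome of mm9 was used here, so no sequences are shown.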

Additional observations from a re-analysis of the deposited data

How the results depend on the processing

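Of 6 results recomputed under 12 alternatives, none has a test. With the better 50% of each list, 1329 regions met the rule, of median width 1134 bp, at 16.4 kb from a shared region, 13.6% of them within 10 kb of another, and 34.7% of shared regions within 10 kb of a member ranked above WT. Merging over gaps of 500 bp or less gave a median width of 873.5 bp, a distance of 10.7 kb and 14.7% within 10 kb of another. Peaks with a −log10 q of 5 or more gave 875 bp, 10.7 kb and 18.1%. With no WT peak allowed within 1 kb, 1855 regions were left and the distance was 11.97 kb. With every list shortened to its best 72318 peaks, 3093 regions met the rule and CBE_1 ranked above CBE_2 in 11.8%. Leaving out each library in turn gave 2487 to 3273 regions, widths of 599 to 728 bp, distances of 6.88 to 8.29 kb, 21.7 to 24.0% within 10 kb of another, 16.2 to 26.3% with CBE_1 above CBE_2, and 41.3 to 45.1% of neighbours above WT, against 22.7 to 26.7% of all shared regions in the same settings. Leaving out a library removes a condition from the rule and from the call above WT, so both become easier to meet. The cause of these shifts was otherwise not tested. The alternatives for the neighbours were chosen after seeing the data. No paired analysis was possible because the labels give no replicate numbers. Read depth is unknown, and absence from WT means only that no peak was called in the WT lists.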

Other observations

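Within 10 kb of a WT-only region lay 170 mutated-only regions (7.48%), against 19.6% of the regions found in all 6 lists. Within 10 kb of a region missing only from CBE_1 lay 116 (5.11%), against 12.01%, and within 10 kb of one missing only from CBE_2 lay 37 (1.63%), against 2.96%. Shared regions lie in denser stretches than mutated-only regions do, and the part of that density in these shares was not tested.

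The balance between the mutated lines varied among chromosomes, both in the members and in all regions with a peak in the 4 mutated lists. The share of members in which both CBE_1 libraries ranked above both CBE_2 libraries ran from 10.2% on chromosome 17 to 25.6% on chromosome 18. Over all regions of the 4 mutated lists it ran from 8.80% on chromosome 3 to 28.1% on chromosome 18. On chromosome 18 the reverse order held in 33.7% of 86 members, against 32.5% of all such regions. On chromosome 17 CBE_1 ranked above in 10.2% of 98 members, against 18.8%, and CBE_2 in 60.2%, against 53.6%. On chromosome 8 CBE_1 ranked above in 25.2% of 111 members, against 13.7%, and CBE_2 in 54.1%, against 58.5%. These chromosomes were chosen after their values were seen, and the differences between chromosomes were not tested.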
